A study of Mus musculus with 2 samples.

Results

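Genes of mast cells and basophils were examined in mouse cultures labelled as TH9 cells, CD4 T cells driven towards making IL-9. The 10 genes were Cpa3, Mcpt4, Mcpt8, Prss34, Tpsb2, Fcer1a, Ms4a2, Kit, Hdc and Gata2. They were chosen by name, with earlier results of these data known. Each was found through the RefSeq accession of its probes, and all 10 had a probe, 11 probes in all, among 20651 genes that could be named on the array. Both cultures started from naive cells of spleen and lymph node, sorted as CD4+TCR+CD62Lhi CD44lo. They received anti-CD3 and anti-CD28 (2 µg/ml each), IL-4 at 10 ng/ml, TGFβ1 at 2 ng/ml and human IL-2 at 100 U/ml, and the sample descriptions give 5 days of culture where the treatment protocol gives 5 to 6. The wild-type culture (labelled WT or wild-type) came from mice with no stated allele. The knockout culture came from SIRT1flox/flox-CD4-Cre mice, in which the Cd4 promoter drives Cre, so that recombination is aimed at T cells and their CD4-expressing precursors. Age, strain, sex and any pooling of mice are not given in the sources used here. RNA of each culture was hybridised to 1 single-colour Agilent array. With 1 array per genotype there was no replicate, no difference below could be tested and no p-value is given.

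Mast cells and basophils are the cells that bind IgE through the receptor FcεRI. Cross-linking of that receptor releases histamine, proteases and lipid mediators stored or made in the cell. Both lineages depend on the transcription factor GATA2. Mast cells need signalling through KIT, and their granules hold chymases, tryptases and carboxypeptidase A3. Mouse basophils instead carry the proteases MCPT8 and MCPT11 (encoded by Prss34). T cells are not known as a main source of these granule proteases, while IL-9, the product of TH9 cells, is a growth factor of mast cells.

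The labelled cell type was only partly borne out by its markers. Of the 12 T cell markers 11 had a probe, and all 11 were well above background on both arrays, the scanner software's own flag for a spot clearly brighter than its surroundings. The Il9 probe was undetected on both arrays. Its processed signal, the spot intensity as corrected for background by the scanner software, was 5.48 for wild-type and 7.36 for knockout. The lowest signals flagged well above background were 24.6 and 9.76 on these arrays. The Sirt1 probe gave 3240 and 2920, a difference of -0.08 on the log2 scale (knockout minus wild-type) ± 0.20 (scanner error). Neither the deleted exons nor the probe's place are stated, so Sirt1 does not check the genotype label. Every list of markers of other cell types also held genes well above background on both arrays, as given further on. Lck, the brightest T cell marker, gave 25100 for wild-type and 28200 for knockout. The B cell marker Ms4a1 gave 50400 and 35900, and the dendritic cell marker Siglech 74900 and 67500 by its brighter probe. The neutrophil markers Csf3r and S100a9 gave 73800 and 59300, and 92000 and 89000. Each of these was brighter than Lck on both arrays, but they were among the brightest of their lists. The other Siglech probe gave 1900 for wild-type and 2590 for knockout. Brightness varied widely within lists, the B cell marker Pax5 giving 306 and 253 and the T cell marker Cd247 61.6 and 34.3. Signals of different probes cannot be read as relative amounts of RNA.

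The genes of mast cells and basophils were split between the arrays. Cpa3, Fcer1a and Mcpt4 were 3.30-fold, 2.80-fold and 2.30-fold higher on the knockout array, and Kit and Hdc were higher within 2-fold. Mcpt8, Prss34 and Tpsb2 were lower on the knockout array, each within 2-fold. Gata2 was well above background on the knockout array only, and Ms4a2 on neither. The 8 genes measured on both divided into 5 higher and 3 lower, with 3 past 2-fold upwards and 0 downwards. Among all 12958 genes measured on both arrays, 50.4% were higher by any amount, 3.95% were at least 2-fold higher and 3.63% at least 2-fold lower. At 3-fold, which Cpa3 alone passed, the shares were 0.656% and 0.864%. The median difference of the 8 genes was 0.53 on the log2 scale, against 0.0031 over all genes measured. Since the genes were chosen with earlier results of these data known, these shares and medians are a description and not a test. Each difference is of the log2 processed signal after subtracting each array's 75th percentile.

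**Figure D1:**
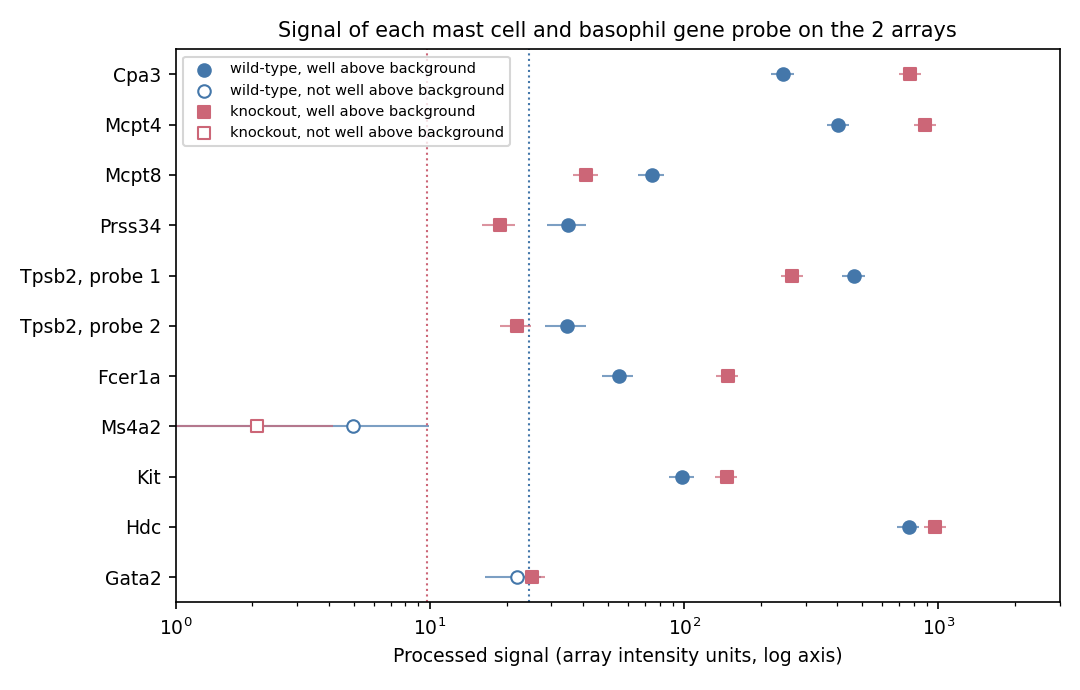
Processed signal (array intensity units, log axis) of each of the 11 probes on the wild-type array (blue circles) and the knockout array (red squares), 1 spot per array, with bars for the scanner's signal error and dotted lines at the lowest signal flagged well above background on each array, 24.6 for wild-type and 9.76 for knockout. Open symbols were not well above background. Cpa3, Mcpt4, Fcer1a, Kit and Hdc lie further right on the knockout array, and Mcpt8, Prss34 and both Tpsb2 probes further left.

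The start regions of 5 of these genes are shown because Cpa3, Mcpt4 and Fcer1a were higher together while Mcpt8 and Prss34 were lower together, and because GATA factors act in both lineages. Each line gives the 250 bases before the RefSeq transcription start, read in the direction of the gene, in assembly GRCm38.p6. Capitals mark GATAA or, on the other strand, TTATC, a core sequence that GATA factors recognise.

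Cpa3, chr3:20242182-20242431, minus strand: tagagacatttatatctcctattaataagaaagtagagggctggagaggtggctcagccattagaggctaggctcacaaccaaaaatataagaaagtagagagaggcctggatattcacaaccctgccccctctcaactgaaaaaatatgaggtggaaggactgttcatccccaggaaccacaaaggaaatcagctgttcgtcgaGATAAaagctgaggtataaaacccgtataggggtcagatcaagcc
Mcpt4, chr14:56062311-56062560, minus strand: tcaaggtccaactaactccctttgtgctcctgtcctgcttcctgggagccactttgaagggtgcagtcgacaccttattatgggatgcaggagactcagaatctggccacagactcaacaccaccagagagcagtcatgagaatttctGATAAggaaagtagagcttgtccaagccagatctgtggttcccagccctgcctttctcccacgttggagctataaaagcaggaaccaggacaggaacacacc
Fcer1a, chr1:173227230-173227479, minus strand: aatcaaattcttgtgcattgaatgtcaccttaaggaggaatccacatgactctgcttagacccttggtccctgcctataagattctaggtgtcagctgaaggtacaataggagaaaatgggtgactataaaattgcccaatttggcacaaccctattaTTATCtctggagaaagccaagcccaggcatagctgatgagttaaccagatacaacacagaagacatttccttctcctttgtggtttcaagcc
Mcpt8, chr14:56085198-56085447, minus strand: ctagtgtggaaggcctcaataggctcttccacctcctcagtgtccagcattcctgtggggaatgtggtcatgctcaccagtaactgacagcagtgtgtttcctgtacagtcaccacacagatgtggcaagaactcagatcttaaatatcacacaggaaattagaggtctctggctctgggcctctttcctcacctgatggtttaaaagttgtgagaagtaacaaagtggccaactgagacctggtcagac
Prss34, chr17:25298144-25298393, plus strand: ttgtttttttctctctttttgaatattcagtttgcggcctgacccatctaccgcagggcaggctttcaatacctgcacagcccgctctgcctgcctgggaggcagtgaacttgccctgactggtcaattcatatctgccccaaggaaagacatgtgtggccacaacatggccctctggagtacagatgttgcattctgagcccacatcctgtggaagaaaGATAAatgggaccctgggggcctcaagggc

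The Cpa3 window held 1 match, which began 45 bases before the start, the Mcpt4 window 1 at 102 bases and the Fcer1a window 1 at 92 bases. The Prss34 window held 1 match at 30 bases, although that gene was lower on the knockout array. The Mcpt8 window held 0. Of the 9 genes with a window, 5 had at least 1 match, the fifth being Ms4a2 with 3. Counted by window rather than by gene, 22.6% of all 32851 windows of this length held a match. The 9 genes had 11 windows, so the count of genes and the share of windows differ in unit. The windows of Kit, Hdc and Gata2 held 0. The motif was thus present in 3 of the 5 genes higher on the knockout array, in 1 of the 2 lower genes with a window and in a gene not measured on either. Tpsb2, also lower, had no window and could not be scored. A second motif, the E-box CAGCTG, which reads the same on both strands, lay in the windows of Cpa3 and Fcer1a, 2 of the 9 genes. Again counted by window, 13.0% of all windows held that E-box. The E-box overlapped no GATAA match in the windows of these genes. A match describes the sequence only.

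Among the granule proteases, Cpa3 and Mcpt4 went one way and the other 3 the opposite way. Cpa3 encodes carboxypeptidase A3, which trims peptides after chymase has cut them. Its probe gave 245 ± 25.0 (scanner error) for wild-type and 774 ± 77.4 for knockout, a log2 difference of 1.72 ± 0.21, the highest of the 8 genes. Mcpt4 encodes a chymase of connective tissue mast cells. It gave 404 for wild-type and 888 for knockout, a difference of 1.20 ± 0.20. Both genes were thus brighter on the knockout array by more than their scanner error, and their signals lay far above the lowest detected signal.

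Mcpt8, the basophil protease that serves as a marker of that lineage in mice, gave 74.6 ± 8.96 for wild-type and 41.0 ± 4.59 for knockout. The difference was -0.80 ± 0.24. Prss34, encoding the basophil tryptase MCPT11, was the dimmest of the measured genes, with 34.9 ± 6.11 and 18.8 ± 2.78 and a difference of -0.83 ± 0.33. Among genes measured on both arrays, those this dim were more often lower on the knockout array. Over the 2785 genes with a mean signal from 10 to below 100, the median difference was -0.20 and 26.5% were at least 1.5-fold lower, against 13.6% at least 1.5-fold higher. At 2-fold these shares were 9.41% and 5.46%, and over genes of any brightness 12.0% were at least 1.5-fold lower and 11.0% higher. The lowest detected signal was also lower on the knockout array, 9.76 against 24.6, so a gene between these signals could count as measured on the knockout array but not on the wild-type array. A gene at 34.9 and 18.8, such as Prss34, thus counts as measured on both, while one at 18.8 and 34.9 would not. This filter can by itself raise the share of lower genes among dim ones, and its part in these shares was not tested. The values of Mcpt8 and Prss34 are to be read against those shares, with that limit.

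Tpsb2 encodes the tryptase MCPT6 of mast cells and had 2 probes. The brighter gave 466 for wild-type and 266 for knockout, a difference of -0.74 ± 0.21. The dimmer gave 34.7 and 21.9, a difference of -0.60 ± 0.33. The probes thus pointed the same way at very different brightness. Over the 5139 genes with a mean signal from 100 to below 1000, to which the brighter probe belongs, 11.0% were at least 1.5-fold lower and 2.74% at least 2-fold lower, and the median difference was 0.0023. The related tryptase gene Tpsab1 had no matched probe, and probe sequences were not used here, so how far the Tpsb2 probes also bind its transcript was not tested.

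The IgE receptor was represented by its α and β chains. Fcer1a, encoding the α chain that holds IgE, gave 55.2 ± 7.88 for wild-type and 148 ± 14.9 for knockout, a difference of 1.49 ± 0.25. Both spots were well above background. In that range of brightness 14.2% of genes were at least 1.5-fold higher and 5.04% at least 2-fold higher. Ms4a2, encoding the signal-amplifying β chain, gave 4.98 for wild-type and 2.09 for knockout and was not well above background on either, so no fold is given. Of the 3 chains of the receptor, 2 were thus measured, since Fcer1g, encoding the γ chain that macrophages and other cells share, gave 703 and 1210, a difference of 0.85 ± 0.20.

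Kit, the receptor for stem cell factor, gave 98.2 ± 11.0 for wild-type and 147 ± 14.8 for knockout, a difference of 0.65 ± 0.22. Hdc, the enzyme that makes histamine, gave 764 and 972, a difference of 0.41 ± 0.20. Hdc had the smallest difference of the 8 genes measured on both arrays. Gata2 gave 21.9 for wild-type, below the lowest detected signal there, and 25.1 for knockout, a difference of 0.26 ± 0.40 that lies within its scanner error. By its bound Gata2 was at least 1.07-fold higher, also within that error. That bound sets the knockout signal against the lowest detected signal of the wild-type array. Of all named genes, 8.56% were likewise detected on the knockout array only and 28.0% on neither array.

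All 11 probes were printed once per array, so each value rests on 1 spot. None of these spots was saturated or flagged as an outlier. Other probes were printed several times, and their spots show how well 1 spot repeats. For signals from 10 to below 100, the median SD between spots of the same probe was 0.12 for wild-type (37 probes) and 0.090 for knockout (70 probes), on the log2 scale. From 100 to below 1000 it was 0.039 (110 probes) and 0.033 (112 probes). As scaled here, all 8 differences exceeded 2 times their scanner error and these spot SDs. Hdc did so only narrowly, at 0.412 with an error of 0.204, and it was 0.407 with loess. Over 258 probes printed several times and well above background on both arrays, the median absolute difference between the arrays was 0.26. Neither the scanner error nor the spot SDs cover the spread between cultures or between labelled RNA preparations, which 1 array per genotype cannot give.

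**Figure D2:**
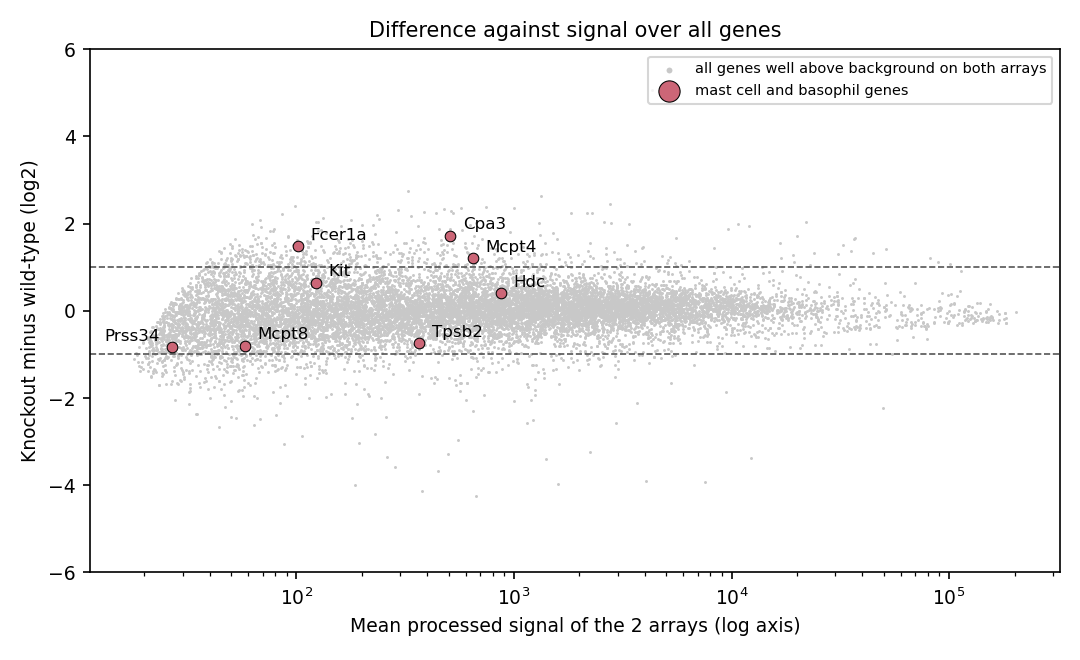
Knockout minus wild-type difference (log2) against the mean processed signal of both arrays (log axis), with all 12958 genes well above background on both arrays in grey and the 8 measured mast cell and basophil genes in red. Dashed lines mark 2-fold. Cpa3, Mcpt4 and Fcer1a lie above the upper line, and Prss34 and Mcpt8 lie in the dim range where the grey cloud extends further below 0.

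The differences were smaller under 1 of the alternative settings. Scaled by the array median, by quantile normalization or by loess, with outlier-flagged spots kept or with probes averaged, Cpa3 ranged from 1.72 to 1.91, Mcpt4 from 1.20 to 1.39 and Fcer1a from 1.49 to 1.67, the authors' deposited log2 values included. With normexp correction of the median pixel intensity, an offset of 50 and quantile normalization, which were changed together, Cpa3 was 1.29, Mcpt4 0.97 and Fcer1a 0.69, so that only Cpa3 of these 8 genes was at least 2-fold higher. Kit was then 0.39, Mcpt8 -0.23 and Prss34 -0.16. Under the other settings Kit lay between 0.65 and 0.83, Mcpt8 between -0.80 and -0.61 and Prss34 between -0.83 and -0.62. Quantile normalization alone left Cpa3, Mcpt4 and Fcer1a past 2-fold. All 8 genes kept their sign under each of these settings. In the authors' deposited table Cpa3 stood at 7.87 for wild-type and 9.63 for knockout, and Mcpt8 at 6.12 and 5.49. The highest value of that table was 17.7 for wild-type but 46.7 for knockout. The balance of all genes past 2-fold moved with the scaling. The share of them that was higher was 52.1% as scaled here, 62.6% with quantile normalization, 63.9% in the authors' deposited table and 73.3% after centring on the median, which itself moved the median of all genes to 0.19.

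**Figure D3:**
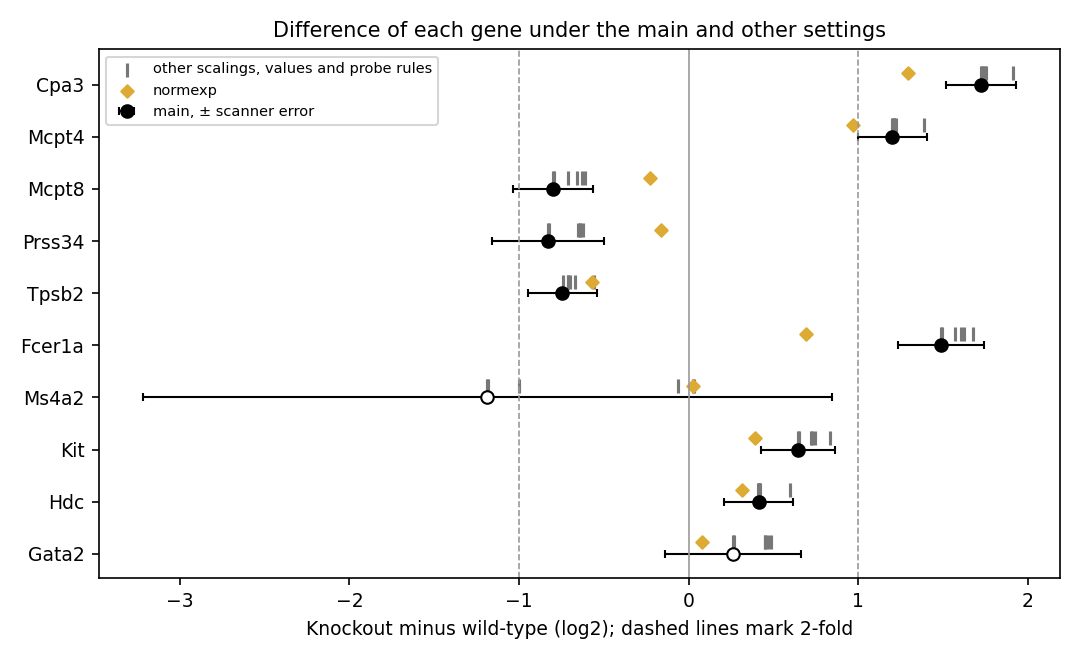
Knockout minus wild-type difference (log2) of the 10 genes, with black circles and bars for the value scaled to the 75th percentile and its scanner error (open where the gene was not well above background on both arrays), grey ticks for the other scalings, values and probe rules, and yellow diamonds for normexp with quantile normalization. That setting gave the smallest differences for Cpa3, Mcpt4, Fcer1a, Mcpt8 and Prss34, and Cpa3 alone stayed beyond the dashed 2-fold line.

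Other genes of these lineages were examined in 6 lists. The first held other granule proteases and the granule proteoglycan gene Srgn, and 8 of 10 listed names had a matched probe (not Tpsab1, nor Mcpt11, an older name of Prss34). On both arrays 4 were measured, 3 higher and 1 lower, all within 2-fold, with a median of 0.08. These counts and the median include Srgn, which gave 16400 for wild-type and 15800 for knockout, a difference of 0.01. Cma1, the chymase MCPT5 of connective tissue mast cells, gave 36.4 and 60.9, a difference of 0.81 ± 0.29. Ctsg, encoding cathepsin G of neutrophils and mast cells, gave -0.34 and Cma2 gave 0.15. Mcpt1 and Mcpt9, encoding proteases of mucosal and uterine mast cells, were not well above background on either array.

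The lists of ligands and receptors and of mediators each held genes past 2-fold. Of 12 ligand and receptor genes, 8 were measured on both arrays, 6 higher and 2 lower, 2 of them at least 2-fold higher, with a median of 0.52. The median was 0.25 with probes averaged and 0.80 in the authors' deposited table, where 3 genes passed 2-fold, the third being Il9r at a difference of 20.02 (-0.14 as scaled here). Il1rl1, the IL-33 receptor carried by mast cells, basophils and TH2 cells, gave 363 and 868, a difference of 1.32 ± 0.20, and its other 2 probes were not well above background. Il33, its ligand, which stromal and endothelial cells make, gave 1050 and 2480, a difference of 1.31 ± 0.20. Both remained past 2-fold with normexp, at 1.07 and 1.25. Csf2rb, the shared β chain of the IL-3, IL-5 and GM-CSF receptors, differed by 0.80 by its brighter probe and by -0.23 by the other, which was above background on the knockout array only. Its probe may not separate it from the near-identical paralogue Csf2rb2.

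Of 13 genes of amine and lipid mediators 12 had a probe and 11 were measured on both arrays, 8 higher and 3 lower, 2 at least 2-fold higher and 1 at least 2-fold lower, with a median of 0.41. After centring on the median 4 were at least 2-fold higher and 0 lower, with Alox5, the enzyme that starts leukotriene synthesis, at 1.10 and Ddc, the aromatic amino acid decarboxylase, at 1.07 added. That scaling also moved the shares over all genes measured, to 6.18% at least 2-fold higher and 2.25% lower, from 3.95% and 3.63%. Tph1, which starts serotonin synthesis and is found in mast cells, gave 41.0 and 116, a difference of 1.57 ± 0.28. Ptgs1, the cyclooxygenase COX-1, gave 41.6 and 87.5, a difference of 1.14 ± 0.27. Hrh4, the histamine H4 receptor, gave 73.9 and 32.7, a difference of -1.11 ± 0.24. With normexp these were 0.66, 0.46 and -0.33, all within 2-fold, and Hrh4 was also within it with quantile normalization (-0.97).

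The remaining 3 lists held no gene past 2-fold. Of 14 genes of IgE receptor signalling 13 were measured on both arrays, 8 higher and 5 lower, with a median of 0.11 (-0.02 with probes averaged). Lat, an adaptor that T cells also use, differed by 0.92, and Fyn, a Src family kinase of T cells and mast cells, by -0.83. Of 13 lineage transcription factors 12 were measured, 7 higher and 5 lower, with a median of 0.06 (-0.03 with probes averaged). Tal1, a factor of blood progenitors, mast cells and red cells, differed by -0.92, Cebpa, a myeloid factor, by -0.72 and Mitf, a factor that mast cells need, by 0.89 by its brighter probe and -0.80 by the other. After centring on the median, Lat and Fcer1g of the signalling list and Mitf passed 2-fold, at 1.11, 1.03 and 1.07. Of all genes measured, 6.18% were at least 2-fold higher under that scaling, against 3.95% as scaled here.

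Of 16 further surface genes 8 were measured on both arrays, 7 higher and 1 lower, with a median of 0.61. Siglecf, a lectin best known from eosinophils, differed by 0.88 (1.07 after centring on the median), Cd63, a granule membrane protein, by 0.79 and Itgb7, an integrin chain of mast cell progenitors and T cells, by 0.72. Cd200r3, Enpp3, Mrgprb1 and Mrgprb2, surface genes closely tied to mast cells or basophils, were not well above background on either array. Also undetected on both arrays were Itga2, Itga2b and Mrgpra1.

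**Figure D4:**
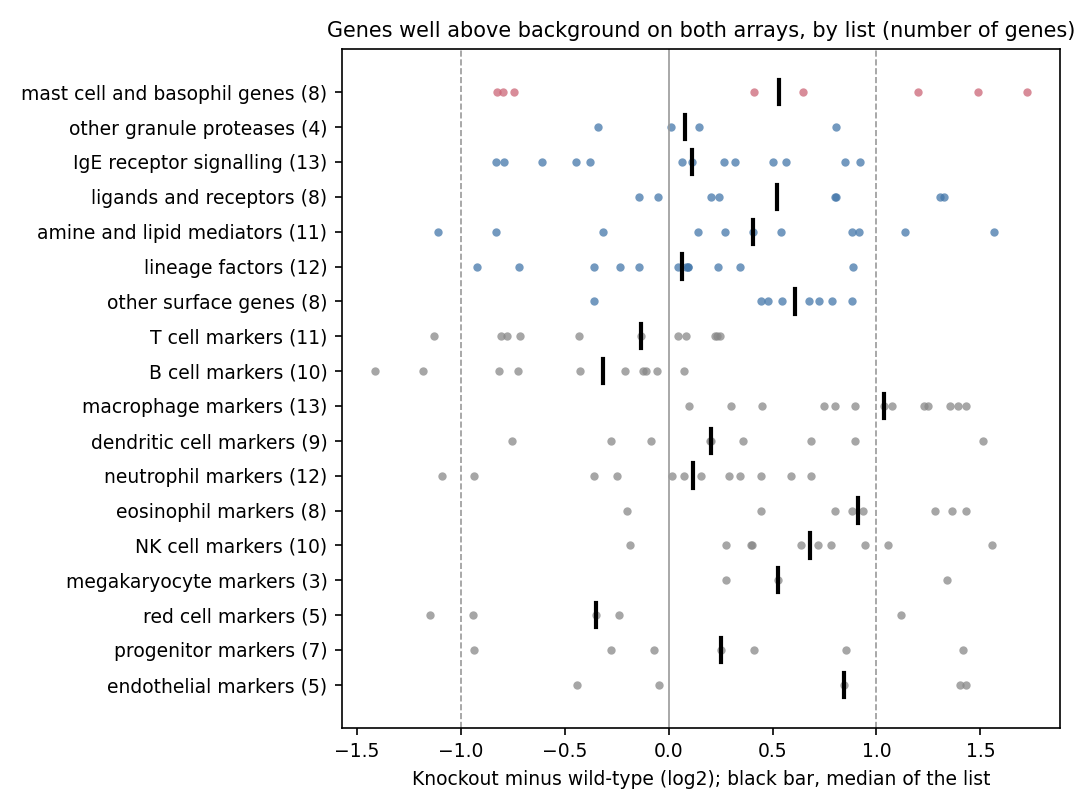
Knockout minus wild-type difference (log2) of every gene well above background on both arrays, for 8 of the 10 mast cell and basophil genes (red), 6 lists of related genes (blue) and 11 lists of cell type markers (grey), with a black bar at each median and the number of genes in brackets. The list of other granule proteases includes the proteoglycan gene Srgn. Macrophage, eosinophil and NK cell markers lie mostly to the right, and B cell markers mostly to the left.

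Markers of other cells moved between the arrays as well, in both directions. In these bulk RNA values fewer cells of a type and less RNA per cell cannot be told apart. The summed signals below are processed signals before scaling, over all listed genes with a probe, detected or not. The 75th percentile was 544 for wild-type and 520 for knockout, which the medians allow for and the sums do not. All 13 macrophage markers with a probe were measured and higher on the knockout array, 7 past 2-fold, the median being 1.04 and a summed signal of 19764 for wild-type and 41995 for knockout. Marco, a scavenger receptor, was 2.70-fold higher and Csf1r 1.86-fold higher by its brightest probe. The other 2 Csf1r probes, also detected on both arrays, differed by -0.14 and -0.57, and the mean over its probes was 0.06. Of 10 eosinophil markers, 8 were measured, 7 higher and 3 of them past 2-fold, the median being 0.91 and a summed signal of 2904 and 5555. Ear2, an eosinophil ribonuclease, was 2.43-fold higher and Prg2, the major basic protein, 1.91-fold higher. The 3 past 2-fold were Ear1, Ear2 and Ear10, all of the Ear gene family, and how far their probes bind each other's transcripts was not tested. Il5ra was lower, at -0.20, and Alox15 was undetected on both arrays. Epx gave 11.8 and 24.3 and was detected on the knockout array only, where the lowest detected signal was lower (9.76 against 24.6). By its bound Epx was at least 1.03-fold higher.

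All 10 NK cell markers were measured, 9 higher and 2 past 2-fold, the median being 0.68 and a summed signal of 13681 and 32247, of which Klra1 gave 8790 and 24700. Endothelial markers, which bear on Gata2 and Il33, were measured in 5 of 10 cases, 3 higher and 2 of them past 2-fold, the median being 0.85, summed signals of 1560 and 2436 and Tek, Tie1 and Erg undetected. That median is the value of Kdr, a VEGF receptor, whose dimmer probe differed by -0.74, and with probes averaged the median was 0.05. Of 9 dendritic cell markers all were measured, 6 higher and 1 past 2-fold, the median being 0.20 and summed signals of 79477 and 72587. Progenitor markers, which bear on Kit and Gata2, were measured in 7 of 10 cases, 4 higher and 1 past 2-fold, the median being 0.25 and summed signals of 10543 and 9631.

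Neutrophil markers, which bear on Hdc, were measured in 12 of 12 cases with a probe, 8 higher and 4 lower, the median being 0.12 and summed signals of 214498 and 203773. Of these, 1 was past 2-fold, Prtn3, which was lower at -1.09. S100a9 alone gave 92000 and 89000. B cell markers were measured in 10 of 10 cases, 9 lower and 2 of those past 2-fold, the median being -0.32 and summed signals of 124056 and 97877. T cell markers were 5 higher and 6 lower, the median being -0.13 (0.05 after centring on the median, -0.34 with probes averaged) and summed signals of 60536 and 56502. Of these, 1 was past 2-fold, Cd3e, which gave 2330 for wild-type and 1020 for knockout, a difference of -1.13. Red cell markers were measured in 5 of 9 cases, 1 higher and 4 lower, 1 each way past 2-fold, the median being -0.35 and summed signals of 4655 and 3600. Megakaryocyte markers were measured in 3 of 10 cases, all 3 higher, with a median of 0.53, summed signals of 267 and 388 and Itga2b, Gp1bb, Gp9, Gp5 and Gp6 undetected. The part that macrophages, eosinophils or any other of these cells have in the values of Cpa3, Mcpt4, Fcer1a, Kit, Hdc, Mcpt8, Prss34 and Tpsb2 was not tested.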

How the data were processed

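RNA of 2 cultures, 1 per genotype, was hybridised to single-colour (Cy3) Agilent arrays. Per the file headers both arrays shared slide and scan, and were extracted with Agilent Feature Extraction 11.0.1.1, as the submitters' processing notes also state. The deposited scanner files hold each spot's processed signal, an intensity already corrected for background by the software, per the file headers, and its error and flags. A deposited table gives log2 values per probe. Its normalization is not stated, and its columns have equal medians of 5.36 but highest values of 17.7 and 46.7.

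Control spots and outlier-flagged spots (228 and 138 of 43020 gene spots) were left out, spots of the same probe averaged, and log2 signals lowered by each array's 75th percentile. RefSeq accessions named 27220 of 39411 probes through a table of GRCm38.p6, and the 12191 others were not analysed here. The headers name the older build mm9, so no probe position is given. A gene took its brightest probe detected on 1 array or both. Scanner errors of both arrays were combined as the root of the summed squares. Genes within 2-fold are those differing by less than 1 on the log2 scale.

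The genes and lists were chosen with earlier results of these data known. Beside the 10 genes, the rule named from each related list the 3 genes with the largest difference measured on both arrays, and from each marker list the 2 brightest. Not every gene so taken is described, and others were added after their values were seen. Genes of like pattern were not sought, since 2 arrays give 1 difference per gene. Promoter windows are from RefSeq. Analyses ran in Python 3.11.15 and limma 3.58.1 (R 4.3.3), and the functions were tested on simulated data.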

Additional observations from a re-analysis of the deposited data

How the results depend on the processing

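The 10 genes kept their direction under each alternative scaling, background correction, value source and probe rule, except Ms4a2, which was undetected on both arrays. Counts moved in 4 cases. With normexp and quantile normalization together 1 gene was at least 2-fold higher in place of 3. A threshold of 3-fold left 1 higher (Cpa3), and one of 1.5-fold gave 4 higher and 3 lower. With no filter on dim probes 1 gene was lower by at least 2-fold, Ms4a2. The median of the genes stayed between 0.34 and 0.72 under all alternatives. Normexp ran on the median pixel intensity, since the files used here hold no mean. Quantile normalization alone kept 3 genes past 2-fold, and which other step gave the smaller differences was not tested. That setting left 1.35% of all genes at least 2-fold higher and 0.826% lower. List medians changed sign for IgE receptor signalling and lineage factors (probes averaged) and for T cell markers (centring on the median). With normexp and quantile normalization the median was 0.35 for NK cell, 0.27 for megakaryocyte and 0.39 for other surface genes. Centred on the median it was 0.27 for the list of other proteases with Srgn and 0.44 for progenitor markers. It was then 0.39 for dendritic cell, 0.30 for neutrophil, -0.13 for B cell and -0.16 for red cell markers. Signal near background limits Prss34, Gata2 and Ms4a2. No paired analysis was possible because each genotype has 1 array, and no replicate could be left out.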

Other observations

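Granule protease genes of these lineages sit in gene clusters, whose order was taken from the RefSeq table and which were picked after the values were seen. In the chymase cluster on chromosome 14, which also holds granzyme genes, 7 of 15 genes were well above background on both arrays, 5 higher and 2 lower on the knockout array. Mcpt4 and Mcpt8 follow each other in that order, with differences of 1.20 and -0.80. Gzmb, the granzyme of cytotoxic cells at the end of the cluster, gave 331 for wild-type and 401 for knockout, a difference of 0.34, and Gzmc gave 0.16. The granzyme genes Gzmd, Gzme, Gzmf, Gzmg and Gzmn were not well above background on either array.

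From Prss34 to Tpsb2 on chromosome 17, 3 of 4 genes were measured on both arrays, and all 3 were lower on the knockout array. Of these 3, 2 are Prss34 and Tpsb2 themselves, which set the stretch examined. Over all genes measured on both arrays, 50.4% were higher on the knockout array by any amount. Between the 2 lies Prss28, a serine protease gene, with signals of 203 and 172 and a difference of -0.17, and Prss29, which was detected on the knockout array only. Il4 and Il13, cytokines that basophils, mast cells and TH2 cells make, gave differences of 0.42 ± 0.21 and 0.46 ± 0.25.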
